A study of Homo sapiens with 7 samples.

Results

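A set of 10 chaperone genes of the HSP90, HSP70 and mitochondrial chaperonin families were followed through RNA immunoprecipitation sequencing (RIP-seq) of the RNA-binding protein RBM15 and RNA-seq after RBM15 knockdown. The 10 genes, of 62238 in the count files, were picked by symbol: HSP90AA1, HSP90AB1, HSPA8, HSPA4, HSPH1, HSPA1A, DNAJA1, HSPD1, HSPE1 and HSPA9. They were chosen after HSP90AB1 and HSP90AA1 had been seen among the RIP-seq sites with the most reads, so their RIP-seq values are given as a description and without a test. All 7 libraries came from MEG-01, a cell line established from human megakaryoblastic leukemia, at passage number 5, grown in RPMI1640 with 10% FBS and harvested in exponential phase, and every sample is labelled as carrying lentiviral transgenes. The RNA-seq had 3 libraries, 1 of a control without a labelled knockdown and 1 each of the lines with RBM15 knocked down by shRBM15#1 and shRBM15#2. The RIP-seq had 4 libraries from formaldehyde cross-linked cells, pulled down with normal IgG or with an antibody against RBM15. For 1 RIP-seq library of each antibody, the label and the side of the study's own comparison on which the library was placed conflict. These are called the library labelled IgG and the library labelled RBM15 below. They enter no ratio, rank or test, and their reads are given as values only. The other two are called normal IgG 1 and anti-RBM15 1.

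Chaperones bind unfolded or partly folded proteins and release them in cycles of ATP hydrolysis. HSP70 proteins take up short exposed stretches of a chain, J-domain proteins such as DNAJA1 deliver the chain and start hydrolysis, and exchange factors such as the HSP110 proteins HSPA4 and HSPH1 let ADP go. HSP90 dimers act later, on kinases, steroid receptors and other clients, together with co-chaperones. In mitochondria HSPA9 draws proteins in through the membrane, and the HSPD1 ring with its HSPE1 lid folds them. Many of these genes are induced in stressed cells by heat shock factors, which bind repeats of GAA in alternating orientation, the heat shock element. RBM15 is a nuclear RNA-binding protein of the SPEN family.

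The RIP-seq list held 1515 sites, and 7 of them lay in 6 of the 10 genes. The study's annotation placed all 7 in 3'UTRs, for DNAJA1 with an added asterisk that the sources used here do not explain, and each was on the strand of its gene. The central 30 bases of each site, around its midpoint, are shown as a sample of its sequence. Where within a site the reads were densest was not examined. They are given on the sense strand of GRCh37 (hg19), with runs of 3 or more T in capitals, in the order of anti-RBM15 reads.
HSP90AB1, chr6:44221444-44221473, plus strand: gtgTTTTTTTccctctcctgtccttgtgtt
HSP90AA1, chr14:102547675-102547704, minus strand: gagctgtatcttgatgTTTagaaaagtatt
HSPD1, chr2:198351528-198351557, minus strand: TTTTTgaataaaaaacaTTTgtacattcct
HSPA9, chr5:137891557-137891586, minus strand: TTTagtgaccattagctagtgatcaTTTaa
HSPH1, chr13:31711064-31711093, minus strand: gTTTTcttgcaTTTTgctctccattcagca
DNAJA1, chr9:33039104-33039133, plus strand: atgaagTTTaatacctgtaaaaactacaaa
HSPA9, the other site, chr5:137891170-137891199, minus strand: ttatattaggtacagctattaaaacaaggt

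In the RNA-seq, RBM15 itself had 80.2 CPM (reads per 1000000 on exons, after TMM scaling of the libraries) in the control. The level was 43.7 CPM in line shRBM15#1 and 40.7 CPM in line shRBM15#2. Both knockdown libraries were thus near 0.526 of the control level, a log2 fold change of -0.93 (SE 0.23, edgeR adjusted p = 0.0908). Reads on annotated exons numbered from 41629454 to 53230029 per library. Of the cell type markers, GATA1 was at 71.7, 64.2 and 66.0 CPM in the control, shRBM15#1 and shRBM15#2. ITGA2B, the platelet integrin, was lower in both lines, at 919, 476 and 607 CPM in the same order. GP1BA was also lower, at 4.75, 3.37 and 3.72 CPM. The megakaryocyte genes PF4 and GP9 were at 0.0383 to 0.0958 CPM in the 3 libraries. Other markers of this lineage had higher values in the lines, with ITGB3 at 6.28, 17.9 and 51.8 CPM and the platelet chemokine gene PPBP at 2.38, 6.12 and 56.9 CPM in the control, shRBM15#1 and shRBM15#2. Of the 12 megakaryocyte markers 9 were tested, 6 of them with a positive log2 fold change. The median log2 fold change of the 9 was 0.66, and none passed an adjusted p of 0.05. Of 8 erythroid markers 4 rose at that threshold, and their summed level was 959 CPM in the control and 4354 and 4294 CPM in the knockdown libraries. The part of this erythroid shift in the chaperone results below was not tested.

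Among the chaperones, the inducible HSP90 gene, the HSP70 genes HSPA8 and HSPA1A, an HSP110 gene and the chaperonin lid were higher in both knockdown lines than in the control. HSP90AA1, HSPA8, HSPH1, HSPA1A and HSPE1 rose by 2.43-fold to 6.23-fold at an adjusted p under 0.05. The other 5 genes, among them the constitutive HSP90AB1 and the mitochondrial HSPA9, did not pass, and none of the 10 passed the stricter 0.01. Over all 24887 genes tested, 0.534% were called higher, 1.2% lower and 1.74% in either direction at 0.05, and 0.346% passed 0.01. The median log2 fold change was 1.19 over the 10 genes and 0.02 over all genes tested. The comparison had 1 control library, so the spread came from the pair of knockdown lines alone. In edgeR the spread of each gene was moderated by that of all genes. A difference between control cultures cannot be told apart from the knockdown. In these bulk libraries fewer cells of a type and less RNA per cell cannot be told apart either.

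HSP90AA1, the inducible cytosolic HSP90 (ENSG00000080824, chr14:102547075-102606036, minus strand, GRCh37), had 769 CPM in the control, against 2294 and 2281 CPM in the knockdown lines. Both lines were far above the control and close to each other. The log2 fold change was 1.57 (SE 0.24, n = 1 against 2, edgeR adjusted p = 0.0164), a fold of 2.98. HSP90AB1, its constitutive paralog (ENSG00000096384, chr6:44214824-44221620, plus strand), had 1612 CPM, against 1833 and 2022 CPM. The step from the control to the lower line was about as large as the gap between the lines. Its log2 fold change of 0.26 had an SE of 0.22 and an adjusted p of 0.577 by edgeR.

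HSPA8, the constitutive cytosolic HSP70 also called HSC70 (ENSG00000109971, chr11:122928197-122933938, minus strand), was the most abundant of the 10 per base of exon after knockdown. Its control level was 2159 CPM and the lines had 6284 and 6349 CPM, a log2 fold change of 1.55 (SE 0.24, edgeR adjusted p = 0.0175). HSPA1A, the inducible HSP70 (ENSG00000204389, chr6:31783291-31785717, plus strand), was at the other end of the range, with 5.66 CPM before and 29.0 and 41.5 CPM after knockdown. This was the largest fold of the 10, a log2 fold change of 2.64 (SE 0.35, edgeR adjusted p = 0.0106). HSPA1A and the neighbouring HSPA1B are near-identical, so reads may have been lost or split between them. HSPA1B had 26.4 CPM in the control, 58.3 and 88.0 CPM in the lines, a log2 fold change of 1.47 with an adjusted p of 0.0572 by edgeR.

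Of the HSP110 exchange factors and the J-domain partner, 1 of 3 passed. HSPH1 (ENSG00000120694, chr13:31710762-31736525, minus strand) had 97.9 CPM in the control, against 222 and 254 CPM. It rose by 1.28 on the log2 scale (SE 0.24, edgeR adjusted p = 0.0379), and this call was lost with the DESeq2 test (adjusted p = 0.125). HSPA4 (ENSG00000170606, chr5:132387654-132442141, plus strand), the related exchange factor, had 466 CPM in the control, against 622 and 738 CPM, with a log2 fold change of 0.55 (SE 0.24) and an edgeR adjusted p of 0.260. DNAJA1, a cytosolic HSP40 (ENSG00000086061, chr9:33025209-33039905, plus strand), had 179 CPM in the control, against 369 and 397 CPM. Both lines were close to each other at a log2 fold change of 1.09 (SE 0.23), and the edgeR adjusted p was 0.0592. That value was 0.0440 with size factors, 0.0451 at a minimum count of 300 and 0.0476 with unshared bins, and 0.235 with the DESeq2 test.

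In the mitochondrial group the chaperonin genes and the mitochondrial HSP70 lay on opposite sides of the control. HSPE1, the lid (ENSG00000115541, chr2:198364718-198368181, plus strand), had 42.4 CPM in the control, against 112 and 136 CPM, and rose by 1.55 on the log2 scale (SE 0.26, edgeR adjusted p = 0.0241). HSPD1, the ring (ENSG00000144381, chr2:198351305-198381461, minus strand), is the head-to-head neighbour of HSPE1. Its levels were 874 CPM in the control, 1432 and 1540 CPM in the lines, a log2 fold change of 0.77 (SE 0.23) with an edgeR adjusted p of 0.141. HSPA9 (ENSG00000113013, chr5:137890571-137911133, minus strand) was the single gene of the 10 with fewer reads in the lines, at 3319 CPM in the control and 2124 and 2369 CPM after knockdown. Its log2 fold change of -0.56 (SE 0.22) did not pass, with an edgeR adjusted p of 0.223. Processed pseudogenes of HSPD1, HSPE1, HSPA8 and both HSP90 genes could take up some of their reads, and HSPE1 overlaps a read-through gene, so the levels of these genes carry that uncertainty.

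**Figure D1:**
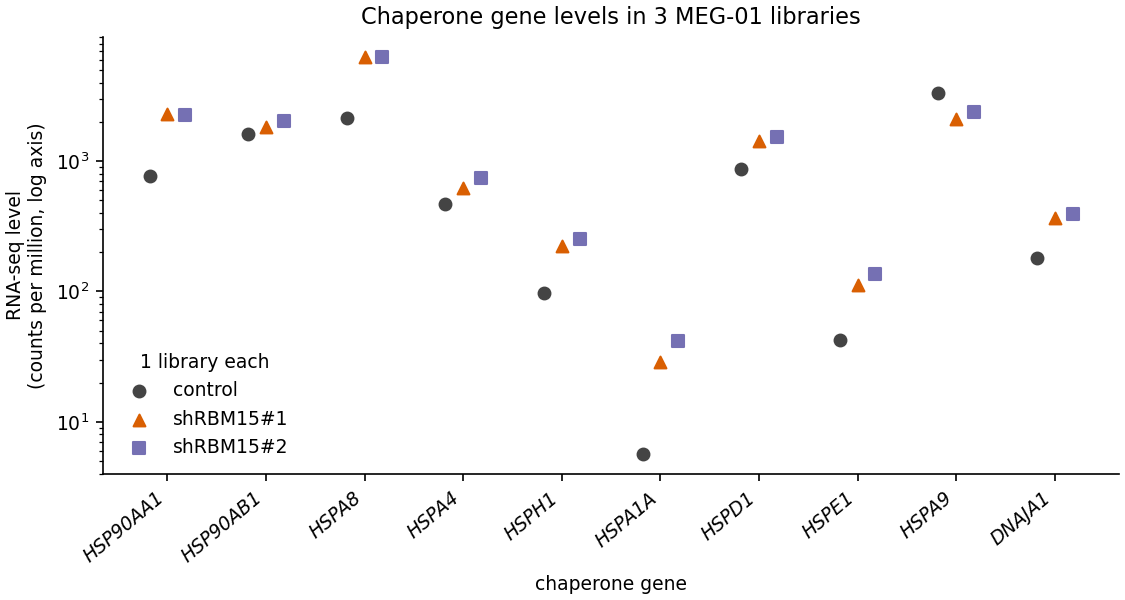
Levels in CPM of the 10 chaperone genes on a log axis, with 1 point for the control library and 1 for each knockdown line. HSPA1A lies lowest and shows the widest gap, from 5.66 in the control to 29.0 and 41.5, and HSPA9 is the gene whose control point lies above both lines.

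Per kilobase of annotated exon the control levels fell in the order HSPA9 (699 CPM per kb), HSP90AB1 (577), HSPA8 (462), HSPD1 (206), HSP90AA1 (146), HSPA4 (90.9), DNAJA1 (65.7), HSPH1 (23.9), HSPE1 (23.7) and HSPA1A (2.33). With 1 control library, neighbours such as HSPH1 and HSPE1 cannot be set apart from each other. In the lines HSPA8 came first with 1344 and 1358 CPM per kb, ahead of HSP90AB1 with 655 and 723. HSPA9 (447 and 499 CPM per kb) and HSP90AA1 (437 and 435) came next. In the shRBM15#1 library these neighbours differed by less than the HSPA9 values of the lines differed from each other. By this measure the order at the top was therefore HSPA9, HSP90AB1, HSPA8 in the control and HSPA8, HSP90AB1, HSPA9 in both lines. It depends on the annotated exon bases used as divisor, 4674 for HSPA8 and 2796 for HSP90AB1. In CPM without that division HSPA8 (2159) lay above HSP90AB1 (1612) in the control. HSPA9 in the control and HSPA8 in the lines came first by either measure.

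**Figure D2:**
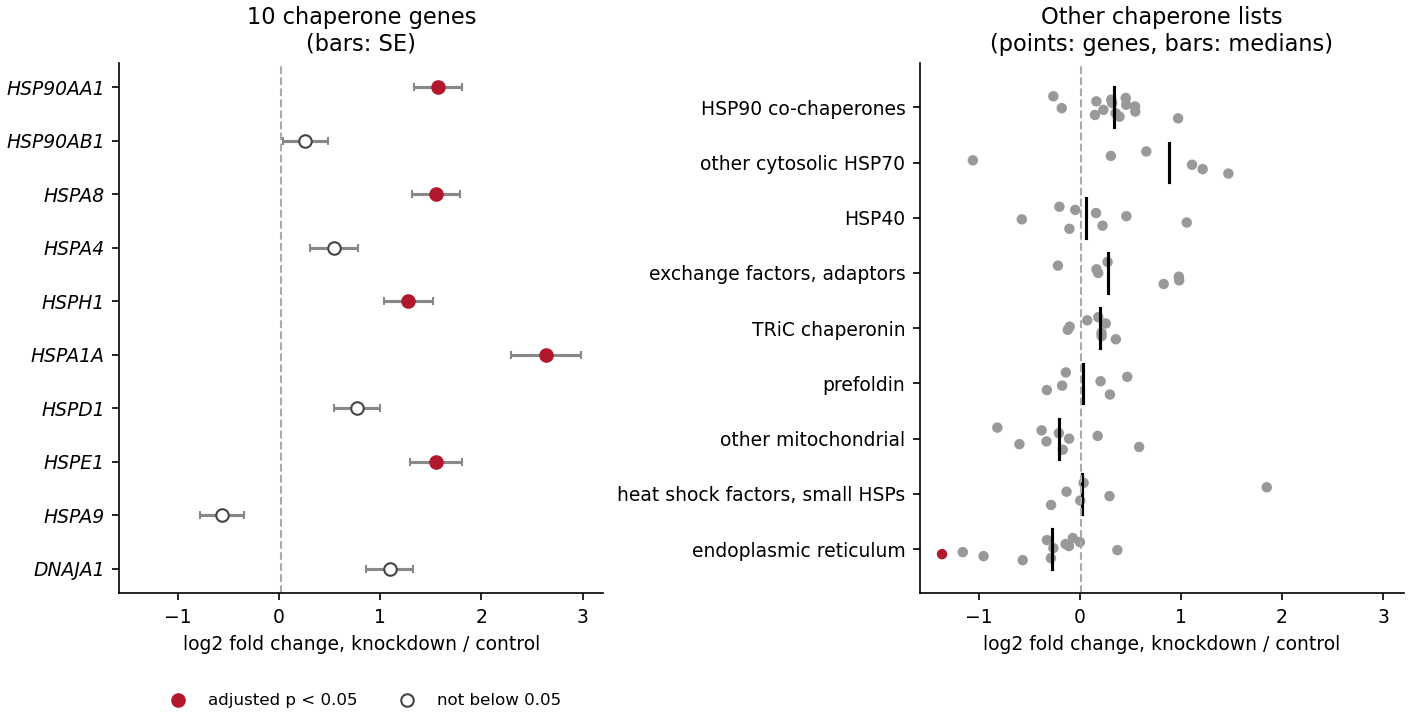
Log2 fold changes of knockdown against control, on the left for the 10 chaperone genes with bars of 1 SE and filled points for an adjusted p under 0.05, and on the right for each gene of the further chaperone lists with the list median as a bar. The 10 genes run from HSPA1A at 2.64 to HSPA9 at -0.56, and on the right HSPA13 at -1.36 is the one filled in red.

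Of 77 further chaperone genes, 76 were tested and 1 was called, where 1.74% of all genes tested were called. Lists of 6 to 14 genes are too small for a lack of calls to set them apart from that share. The called gene was HSPA13, an HSP70-like protein of the endoplasmic reticulum and microsomes. It fell from 220 CPM to 81.9 and 89.7 CPM, a log2 fold change of -1.36 (SE 0.22, edgeR adjusted p = 0.0207). No other of the 12 endoplasmic reticulum chaperones passed, and their median log2 fold change was -0.27 (-0.46 with the DESeq2 test). The 6 other cytosolic HSP70 genes had a median of 0.88 with none called. Here HSPA14, which works at the ribosome, had a log2 fold change of 0.31.

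The partners of HSP70 and HSP90 lay nearer to 0. The 14 HSP90 co-chaperones had a median log2 fold change of 0.34 (0.15 with the DESeq2 test), with CDC37, which brings kinases to HSP90, at 0.15 and FKBP8 at -0.18, and none was called. The 8 HSP40 genes had a median of 0.06 (-0.13 with the DESeq2 test) and none was called. In this list DNAJB1, the partner of HSPA1A, had a log2 fold change of 1.06 (edgeR adjusted p = 0.0782), and DNAJA2 had -0.10. The median of the 7 exchange factors and adaptors was 0.27 (0.08 with the DESeq2 test), with HSPBP1 at -0.22 and ST13 at 0.27, and none was called.

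Outside the HSP70 and HSP90 cycle, none of the listed genes passed. The 8 subunits of the TRiC chaperonin, which folds actin and tubulin, had a median log2 fold change of 0.20 (0.01 with the DESeq2 test), with CCT8 at 0.18 and CCT3 at 0.21. The 6 subunits of prefoldin, which hands chains to TRiC, had a median of 0.03 (-0.15 with the DESeq2 test), with PFDN5 at 0.21 and PFDN2 at -0.33. The 9 other mitochondrial chaperones and proteases had a median of -0.21 (-0.39 with the DESeq2 test), with the proteases LONP1 at -0.82 (edgeR adjusted p = 0.109) and CLPP at -0.38. The 6 tested heat shock factors and small heat shock proteins had a median of 0.02 (-0.16 with the DESeq2 test, where the all-gene median moved by -0.19). HSF1, the main heat shock transcription factor, had a log2 fold change of -0.28, and SERPINH1, a collagen chaperone, had 0.04.

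Heat shock elements were looked for in the 250 bases before each RefSeq start of the 10 genes, as TTCNNGAA or GAANNTTC, with overlapping matches counted separately. Each of these motifs reads the same on both strands. At least 1 match was found in 6 of 14 windows (42.9%), in 6 of the 10 genes, and at least 2 matches in 4 windows (28.6%). Among the 35116 promoter windows of all genes 11.6% held at least 1 and 1.32% at least 2. The windows of the further chaperone genes held at least 1 in 19.1% of 94, and those of the endoplasmic reticulum chaperones in 5.88% of 17. A match is a description of the sequence and not an observed binding site. The windows are RefSeq sequences of GRCh38, each placed by its single exact match in GRCh37. The windows of HSP90AA1 and HSPA1A are shown in full because these genes had the largest folds of the HSP90 and HSP70 families, with the matches in capitals.
HSP90AA1, chr14:102553382-102553631, minus strand: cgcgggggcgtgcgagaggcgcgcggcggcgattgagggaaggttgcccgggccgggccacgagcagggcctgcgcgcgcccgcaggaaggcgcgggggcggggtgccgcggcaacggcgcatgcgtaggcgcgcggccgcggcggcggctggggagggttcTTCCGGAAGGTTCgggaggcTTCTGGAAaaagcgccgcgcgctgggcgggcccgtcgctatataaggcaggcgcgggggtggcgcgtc
HSPA1A, chr6:31783070-31783319, plus strand: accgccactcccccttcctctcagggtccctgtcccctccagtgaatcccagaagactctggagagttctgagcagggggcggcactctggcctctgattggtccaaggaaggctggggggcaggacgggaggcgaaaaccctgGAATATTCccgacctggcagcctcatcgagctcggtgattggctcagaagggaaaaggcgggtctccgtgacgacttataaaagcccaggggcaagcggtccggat

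In HSP90AA1 the first 2 of the 3 matches overlapped, at bases 88 to 76 before the start, and the other lay apart at bases 68 to 61. The single match of HSPA1A was at bases 106 to 99. The matches of the other 4 genes are shown as short stretches, each with its distance before the start of its window.
HSPA8, bases 230 to 218: GAAAGTTCCAGAA
HSPA8, bases 55 to 43: TTCTGGAAGGTTC
HSP90AB1, bases 165 to 153: TTCTGGAAGATTC
HSP90AB1, bases 112 to 100: TTCTGGAAGCTTC
HSPD1, bases 245 to 228: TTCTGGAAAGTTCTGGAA
DNAJA1, bases 198 to 191: GAAGATTC

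The HSP90AB1 stretches belong to a RefSeq start 842 bases downstream of the main annotated start, and the windows of its other starts held none. HSP90AA1 and HSPD1 each had another window without a match, of a start upstream of the main annotated start. No match lay in the windows of HSPA4, HSPE1 or HSPA9. The single HSPH1 window, also without a match, belongs to a start 484 bases upstream of the main annotated start, and the bases before that main start were not searched. Among the genes that rose, HSP90AA1, HSPA8 and HSPA1A had a match and HSPE1 had none in these windows. The HSPD1 stretch, however, lies between the main starts of HSPD1 and HSPE1. The HSPE1 window (chr2:198364853-198365102) begins past the HSPD1 window (chr2:198364565-198364814), so the stretch was outside the bases searched for HSPE1. Among the genes that did not pass, HSP90AB1, HSPD1 and DNAJA1 had a match.

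Exon-bin usage compares each piece of annotated exon, a bin, with the change of its whole gene. Of 293 bins of the 10 genes 273 had enough reads to be tested, and 2 passed an adjusted p of 0.05 (diffSpliceDGE in edgeR), where 0.00982% of all 234192 tested bins passed. Both had a lower usage after knockdown, and both lay upstream of the main start of a gene that rose, HSP90AA1 and HSPA8. At the study's own limits, an unadjusted p under 0.05 with a fold above 1.2, 12 of the 273 bins passed, against 1.31% of all bins.

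Bin 27 of HSP90AA1 (chr14:102553382-102553528) ends directly before the first base of the main transcript, so that its bases are the last stretch of the HSP90AA1 window printed above, including the capitals. It held 51 reads in the control, against 23 and 37, which is 0.134%, 0.0224% and 0.0311% of the reads of the gene. Its share of the gene fell by 2.32 on the log2 scale (SE 0.47, edgeR adjusted p = 0.0128). Measured as a level of its own, it had 1.03 CPM before and 0.514 and 0.709 CPM after knockdown. Bin 26, the adjoining piece on the transcript side, had 8.75 CPM in the control, against 26.5 and 23.4 CPM, and a log2 change relative to the gene of -0.06. The upstream part of HSP90AA1 comprised 7 bins with 100 control reads, against 51 and 132. The 4 of these with enough reads had log2 changes relative to the gene from -2.32 to -1.08, while the 26 other tested bins of the gene lay between -0.49 and 0.13.

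Bin 67 of HSPA8 (chr11:122933458-122933938) lies upstream of the main first base and held 52 control reads, against 30 and 43. These were 0.0487%, 0.0107% and 0.0130% of the reads of the gene, and the share fell by 2.03 on the log2 scale (SE 0.42, edgeR adjusted p = 0.0172). Bin 66, between bin 67 and the start, had 21, 12 and 17 reads and a log2 change of -2.05, with an edgeR adjusted p of 0.519. The other tested upstream bins, 60 and 61 next to the start, had log2 changes of -0.08 and 0.26. Of the 59 tested HSPA8 bins downstream of the start, the log2 changes ranged from -0.72 to 0.29. Few reads stand behind both bins. With DESeq2 size factors in place of TMM neither bin passed (adjusted p 0.569 for bin 27 and 0.468 for bin 67), and at a minimum of 300 reads neither was tested. Both passed at a minimum of 1 read (edgeR adjusted p 0.029 and 0.038). They also passed in a DEXSeq-type model in DESeq2 (adjusted p 1.4e-05 and 6.1e-05).

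**Figure D3:**
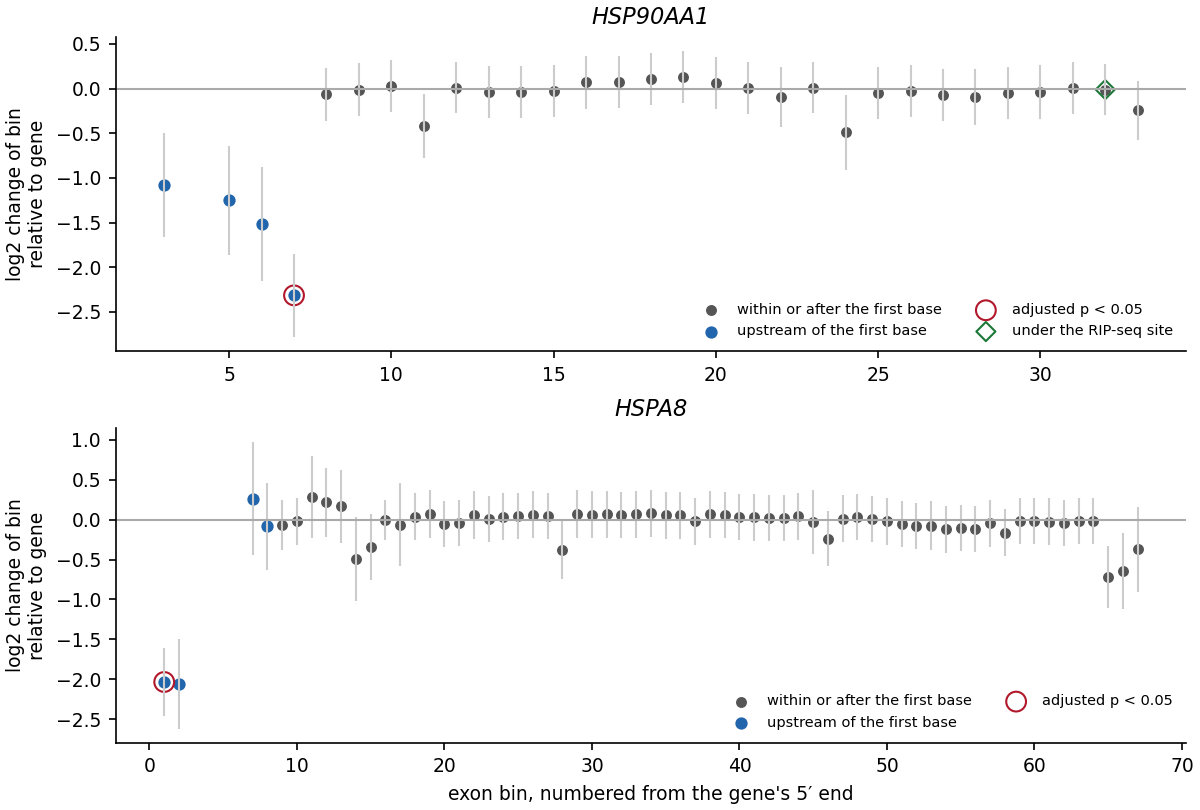
Log2 change of each tested exon bin relative to its gene in HSP90AA1 and HSPA8, knockdown against control, with bars of 1 SE and with bins ordered along each gene from its 5' end, so that bin 27 of HSP90AA1 is at position 7 and bin 67 of HSPA8 at position 1. The ringed bins, which passed the adjusted threshold, lie at -2.32 and -2.03, and the tested bins downstream of the start lie between -0.49 and 0.13 in HSP90AA1 and between -0.72 and 0.29 in HSPA8.

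In the other 8 genes no bin passed the adjusted threshold. Their bins with the smallest p were bin 2 of HSP90AB1 (log2 change 0.17), bin 7 of HSPA4 (-0.49), bin 11 of HSPH1 (-0.90), bin 3 of HSPA1A (0.51), bin 21 of HSPD1 (-0.83), bin 7 of HSPE1 (-1.41), bin 37 of HSPA9 (-0.32) and bin 1 of DNAJA1 (-0.92). Unadjusted p-values of these bins ran from 0.0084 for HSPE1 to 0.624 for HSPA1A. The most 3' tested bin of each gene had an edgeR adjusted p near 1, and the unadjusted p was under 0.05 in HSPH1 alone (0.0465, log2 change 1.85). The libraries were not strand-specific, so reads from overlapping genes on the opposite strand cannot be told apart in HSPD1 and HSPE1, whose starts adjoin.

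In the RIP-seq, HSP90AB1 and HSP90AA1 held the sites that ranked 2 and 3 of all 1515 by anti-RBM15 reads, and HSPD1 and HSPA9 ranked 21 and 27. As these values chose the genes, they are given without a test, and there was 1 library a condition. Over all sites, normal IgG 1 had 28387 reads and anti-RBM15 1 had 807871, a ratio of 28.5, and the median ratio of single sites was 31.3. The list holds sites past the study's own filter for more reads with anti-RBM15, and the total depth of the libraries is unknown. The intervals below cover counting error only.

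The HSP90AB1 site (chr6:44221334-44221584) had 145 reads in normal IgG 1 and 15404 in anti-RBM15 1. The library labelled IgG had 11432 there and the library labelled RBM15 had 179. The library labelled IgG was thus nearer to anti-RBM15 1, and the library labelled RBM15 nearer to normal IgG 1, at this site and at the others that follow. The ratio of anti-RBM15 1 to normal IgG 1 was 106, with an exact 95% interval from 90.2 to 126. The site starts 2 bases after the last coding base and ends 36 bases before the transcript end.

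The HSP90AA1 site (chr14:102547474-102547906) had 161 reads in normal IgG 1, 10945 in the library labelled IgG, 218 in the library labelled RBM15 and 13387 in anti-RBM15 1. Its ratio was 83.1 (71.2 to 97.7), and it starts 146 bases after the last coding base. Both HSP90 genes therefore had similar reads in the RIP-seq, while their RNA levels differed in the control and their folds differed after knockdown. That difference in fold was not tested as such.

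The HSPD1 site (chr2:198351358-198351729) had 65, 3135, 51 and 3775 reads in the same order of libraries, a ratio of 58.1 (45.5 to 75.4). It ends 50 bases before the transcript end. In HSPA9, the site next to the stop codon (chr5:137891406-137891739) had 69, 2576, 86 and 3378 reads and a ratio of 49.0 (38.6 to 63.1). It starts 10 bases before the last coding base. The other HSPA9 site (chr5:137891104-137891267), 462 bases after the last coding base, had 2, 106, 1 and 154 reads and ranked 1094. With 2 reads in normal IgG 1 its ratio of 77.0 has an interval from 21.0 to 642.

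The partner genes had weaker sites. HSPH1 (chr13:31710861-31711297) had 35, 583, 28 and 771 reads in normal IgG 1, the library labelled IgG, the library labelled RBM15 and anti-RBM15 1, a ratio of 22.0 (15.7 to 31.9) and rank 228. DNAJA1 (chr9:33038883-33039356) had 19, 388, 25 and 620 reads, a ratio of 32.6 (20.7 to 54.6) and rank 302. The DNAJA1 site starts 15 bases before the last coding base, and the HSPH1 site starts 161 bases after its last coding base. Together the 7 sites were 0.462% of the sites and held 4.64% of the anti-RBM15 reads.

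**Figure D4:**
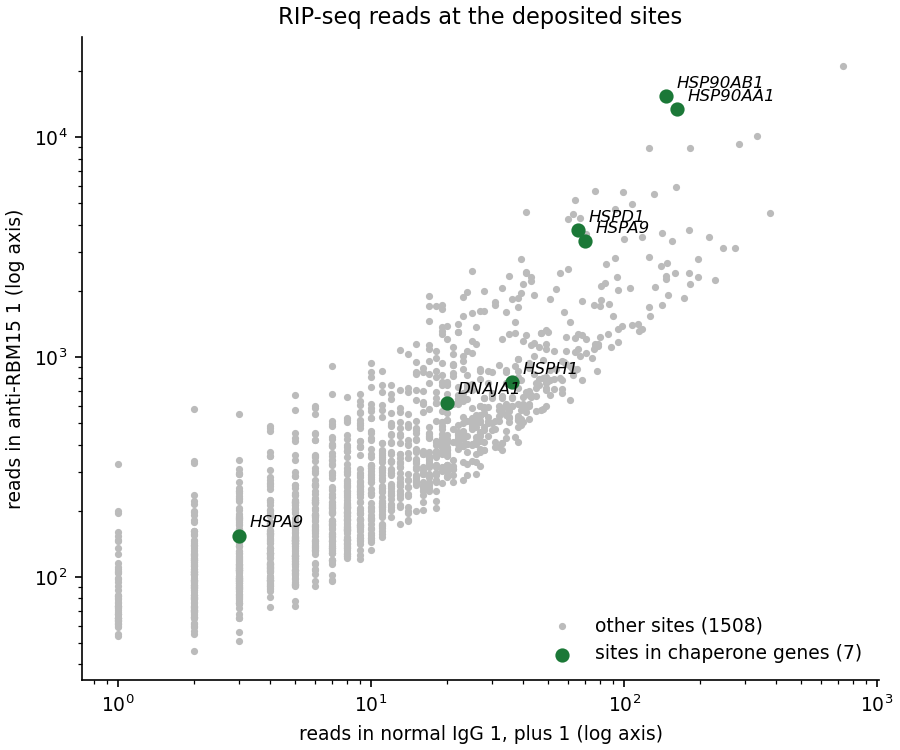
Reads per site in normal IgG 1 and anti-RBM15 1 on log axes, with the 7 sites of the chaperone genes marked among all 1515. HSP90AB1 (15404 reads) and HSP90AA1 (13387) lie at the upper end, and the weaker HSPA9 site (154) lies below the median of 262.

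The sites were also ranked by anti-RBM15 reads divided by the control RNA level of the gene in CPM per kb. Among the 1169 sites of genes with such a level HSP90AA1 then ranked 159, HSPH1 393, HSP90AB1 438, HSPD1 579, DNAJA1 819 and the HSPA9 sites 1018 and 1168. None of the 7 was among the first 10. Per 100 bases of site, in contrast, HSP90AB1 ranked 1 and HSP90AA1 4. The other sites among the first 10 by reads were in ACTB (21097 reads), HNRNPA2B1 (10140), NPM1 (8965), LDHA (8911), ACTG1 (5962), introns of SLC19A1 (5676) and VTI1A (5663), and in no gene on chromosome 6 (9348).

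No site was listed for HSPA8, HSPA4, HSPA1A or HSPE1. Per kilobase HSPA8 ranked 3 of the 10 in the control, and HSPA4 lay above DNAJA1 and HSPH1, which had a site. Of the 2366 genes at or above the control level of HSPH1, 15.6% had a site, and of the 10450 at or above that of HSPA1A, 7.87%. A gene without a listed site may still have had reads, because peaks that did not pass the filter are not in the list.

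The base composition of the 7 sites was set beside that of the other 3'UTR sites, without a test. Their T content was 29.9% to 36.3% with a median of 33.3%, and in 436 other 3'UTR sites the median was 33.0% and the 5th to 95th percentiles 23.3% to 39.7%. A run of TTTTT was in 6 of the 7 (85.7%) and in 315 of the 436 (72.2%). The motif ATTTA was in 4 of the 7 (57.1%) and in 224 of the 436 (51.4%). The HSP90AB1 site held 16.7% A, under the 5th percentile of the other sites (17.9%), and the stronger HSPA9 site held 0.898 copies of ATTTA per 100 bases, over their 95th percentile (0.748). The median of anti-RBM15 reads was higher in the 7 sites, 3378 against 431.5, a measure that chose the genes.

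The further chaperone genes had 11 sites in 8 of the 77 genes. Of all genes at or above the control levels of HSPA1A and HSPH1, 7.87% and 15.6% had a site. Each of the 11 sites had fewer anti-RBM15 reads than the 4 strongest of the 10 genes, but such reads had guided the choice of the 10. Subunits of TRiC had the most of these, with 865 reads in CCT5, 785 in the coding sequence of TCP1, and 578 and 330 at the CCT6A sites. The CCT5 and TCP1 sites thus had more reads than those of HSPH1 (771) and DNAJA1 (620) and the weaker HSPA9 site (154). The HSP90 co-chaperones CHORDC1 (310 and 212 reads) and PPID (127) and the prefoldin subunit VBP1 (104 and 95) had weaker sites. The mitochondrial proteases CLPP (143) and LONP1 (131) had a site in an intron each.

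The RIP-seq sites and the RNA-seq were joined at the exon bins under each site. All 12 such bins were tested, and their log2 changes relative to the gene lay between -0.08 and 0.19 with unadjusted p-values from 0.528 to 0.969. None was called, where 0.00982% of all tested bins passed the adjusted threshold and 1.31% the unadjusted limits. With 12 bins, a lack of calls does not set them apart from these shares. Of the 6 genes with a site, HSP90AA1 and HSPH1 rose after knockdown and HSP90AB1, HSPD1, HSPA9 and DNAJA1 did not pass. Of the 4 genes without a listed site, HSPA8, HSPA1A and HSPE1 rose and HSPA4 did not pass. Over all 24887 genes tested 0.534% were called higher. That share was not computed apart for genes with and without a site, so this split has no baseline. Leaving the bins under sites out of the gene counts left the number of called genes at 5. HSPA8, HSPA1A and HSPE1 have no listed site, so this setting could hardly change their calls.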

How the data were processed

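The RNA-seq was not strand-specific. The authors used STAR and GRCh37 for its alignment, and the deposited values are raw counts in each exon bin of Ensembl models. For the RIP-seq the authors trimmed strand-specific reads, aligned them to hg19, called peaks on coverage with a Gaussian filter and deposited raw counts per library for peaks that passed their DESeq test, with RefSeq annotation. Their columns of log2 fold changes, p-values and FDR, in the site list and in a DEXSeq table, were not used, and 809 wrapped lines of that table were left out. The submitters' processing notes also name CASAVA 1.8.4, Picard 1.126, HTSeq 0.6.0, bedtools 2.17.0 and R 3.1.1.

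Bins were summed per gene, without the lines that name no gene (23.2%, 32.0% and 23.5% of reads in the control, shRBM15#1 and shRBM15#2 libraries). Genes reaching a summed count of 30 were tested with TMM and the quasi-likelihood test of edgeR 4.0.16 (R 4.3.3), with 1 residual degree of freedom, and bins of at least 30 reads with diffSpliceDGE. Adjusted p-values are Benjamini-Hochberg values over all genes or bins tested. The SE of a bin is its log2 change divided by the normal quantile of its p. DESeq2 1.42.0 served as an alternative, also in a DEXSeq-type model. RIP-seq ratios carry exact Clopper-Pearson intervals, which cover counting error only. Scripts were tested on simulated data.

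The genes, lists and tests were chosen with earlier results of these data known. Named were the 10 genes, each further chaperone gene with an adjusted p under 0.05 or else the 2 of its list with the highest control count per kilobase, the 10 sites with the most anti-RBM15 reads, every site of a further chaperone gene, and for bins the one with the smallest p in each gene, those called and those under sites. HSPA1B, DNAJB1 and the other list genes follow this rule, and bins 26 and 66 were named after their values were seen as neighbours of called bins. The lymphoid, monocyte and stromal or epithelial marker lists summed to 4.47 to 5.36, 33.3 to 63.1 and 53.7 to 76.7 CPM in the RNA-seq libraries, with none called.

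The labels give no separate cultures beyond the lines, so p-values measure the spread between these libraries, moderated across genes.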

Additional observations from a re-analysis of the deposited data

Results flagged for a closer look

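The RIP-seq libraries that entered no ratio, rank or test held reads above normal IgG 1 at sites of the chaperone genes. The listed sites passed the study's own filter, in which the library labelled IgG stood on the anti-RBM15 side. Its excess at these sites was therefore built into the list and is given as a description. The excess was not particular to these genes. Over all sites the library labelled IgG had 610915 reads and the library labelled RBM15 28845, against 28387 in normal IgG 1. At the chaperone sites the library labelled IgG had 11432 reads at HSP90AB1, 10945 at HSP90AA1, 3135 at HSPD1, 2576 and 106 at the HSPA9 sites, 583 at HSPH1 and 388 at DNAJA1. Normal IgG 1 had 145, 161, 65, 69, 2, 35 and 19 reads at the same sites. In the library labelled RBM15 the HSP90AA1 site, with 218 reads against 161, was the one marked. HSP90AB1 (179 against 145), the stronger HSPA9 site (86 against 69) and DNAJA1 (25 against 19) were also above normal IgG 1. HSPD1 (51 against 65), HSPH1 (28 against 35) and the weaker HSPA9 site (1 against 2) were below. The labels of both libraries conflict with the study's own comparison, and the cause was not tested.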

How the results depend on the processing

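At an adjusted p of 0.01 the count of called genes among the 10 was 0 as reported, 3 with DESeq2 size factors, 1 with the DESeq2 test, 4 without a filter and 1 with bins shared with no other gene. The count at 0.05 was 5 and stayed between 4 and 6 in the settings that allow a test. Over all genes the calls at 0.01 numbered 86 as reported, 191 with size factors, 358 with DESeq2, 801 without a filter, 112 with unshared bins and 0 at a summed count of at least 300. At 0.05 they were 432, 618, 627, 1486, 508 and 238. Among the further chaperone genes 1 was called, against 2 with size factors and 4 without a filter. Of the bins 2 passed the adjusted threshold, against 0 at a minimum of 300 reads and 0 with size factors, and 12 passed the unadjusted limits, against 1 and 5. With the DEXSeq-type model these counts were 3 and 12, and at a minimum of 1 read 2 and 13. For all bins the counts under the adjusted threshold were 23 as reported, 18, 12, 3 and 194 at a minimum of 1 read, at 300 reads, with size factors and with the DEXSeq-type model, and 3078, 8773, 541, 1891 and 4956 under the unadjusted limits. Of the sites, 2 were among the first 10 by reads and 0 per control RNA level. The cause of these changes was not tested, except that fewer bins are tested at 300 reads. The median shift of genes from the reported fit (log2) was -0.19 with DESeq2, -0.13 without a filter and 0.14 at the minimum of 300. The all-gene median itself, over different sets of genes, was 0.02 as reported and -0.17, -0.11 and 0.0009 in these settings. The medians of several further lists moved with the shift. The medians of the HSP40, prefoldin and heat shock factor lists, 0.06, 0.03 and 0.02 as reported, were -0.13, -0.15 and -0.16 with DESeq2, -0.07, -0.09 and -0.11 without a filter, and -0.04, -0.05 and -0.05 in line shRBM15#1 alone. Each of the 10 genes kept its sign in every setting, also in either line alone, where only a fold could be given. No paired analysis was possible because there was 1 control library. The depth of 23 to 52 reads in the called bins and of 2 reads in normal IgG 1 at the weaker HSPA9 site limits those values.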

Other observations

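Some further chaperone genes outside the naming rule, chosen after their values were seen, lay far from 0 without passing an adjusted p of 0.05 in edgeR. AHSA1, which stimulates the ATPase of HSP90, had 179 CPM in the control and 306 and 395 CPM after knockdown, a log2 fold change of 0.97 (SE 0.26, adjusted p = 0.107). The HSP70 exchange factors BAG2 and BAG3 had log2 fold changes of 0.98 (SE 0.26, edgeR adjusted p = 0.106) and 0.98 (SE 0.31, adjusted p = 0.164). In the endoplasmic reticulum HYOU1 had 753 CPM in the control against 349 and 430 CPM, a log2 fold change of -0.95 (SE 0.23, edgeR adjusted p = 0.0877). DNAJB9, a J-domain protein of the same compartment, had 20.2 CPM against 7.86 and 10.3 CPM, a log2 fold change of -1.16 (SE 0.30, edgeR adjusted p = 0.107). HSPA6, an inducible HSP70, had 17.0 CPM against 7.15 and 9.20 CPM, a log2 fold change of -1.06 (SE 0.31, edgeR adjusted p = 0.138), while HSPA1A of the same family rose.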
